A study of Mus musculus with 12 samples.

Results

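The genes described are 10 that astrocytes, the star-shaped support cells of the brain, express more strongly when they become reactive: Gfap, Vim, Serpina3n, Lcn2, Cd44, Steap4, S1pr3, Timp1, Osmr and Aqp4. They were chosen by name, as the probe sets annotated to exactly 1 of these symbols, and where a gene had several, the probe set with the highest mean over all 12 arrays was taken. All 10 were found, among 22180 genes with a probe set of their own. Each array measured hippocampal RNA of Tg2576 mice, which carry the Swedish form of human amyloid precursor protein under a hamster prion promoter and deposit amyloid in the brain as they age. The labels give the strain as B6.Cg-Tg(APPswe)E1-2Dbo/J, which differs from the study's methods. The methods name Tg2576 on a C57BL/6/SJL background, and the transgene is described here as they give it. Which name holds for these mice could not be settled from the sources used here. The labels give the age as 16 to 18 months, and the methods give the mice as females. There were 4 groups of 3 arrays: vehicle (DMSO and Tween-20 in saline, which the labels name saline), CM-695 (an inhibitor of histone deacetylase 6 and phosphodiesterase 9), CM-414 (an inhibitor of class I histone deacetylases, histone deacetylase 6 and phosphodiesterase 5) and SAHA with tadalafil (a histone deacetylase inhibitor with a phosphodiesterase 5 inhibitor). All groups carried the transgene, so a wild-type level is not part of any comparison, and by the labels every mouse had been through behavioural testing during a treatment of 4 weeks and was killed 24 hours after its end (the methods, which describe vehicle and CM-695 only, count from the last trial in the water maze). The arrays of a group are labelled as biological replicates. Doses of CM-414, SAHA and tadalafil are not given in the sources used here.

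Astrocytes answer injury, inflammation and amyloid plaques by enlarging their processes and by turning on a set of genes that is low in the resting cell. The set includes the intermediate filament proteins of the cytoskeleton, secreted proteins of the acute phase response, and receptors for cytokines and matrix. A main route to these genes runs from cytokines of the interleukin 6 family through the receptors gp130 and OSMR to the transcription factor STAT3, and from interleukin 1 and tumour necrosis factor to NF-kB. Around amyloid plaques, GFAP-rich astrocytes surround the microglia that touch the plaque.

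RefSeq promoter windows, from 250 bases before to 50 bases after the start of each gene, were at hand for 9 of the 10 genes (build GRCm38.p6). The windows of the 4 genes with the widest span of group means are shown, 5′ to 3′ on the strand of the gene, with matches to the motifs searched in capitals. That of Lcn2 lies at chr2:32387690-32387989 (minus strand), that of Gfap at chr11:102897151-102897450 (minus strand), that of Serpina3n at chr12:104406458-104406757 (plus strand) and that of Osmr at chr15:6874264-6874563 (minus strand).
Lcn2: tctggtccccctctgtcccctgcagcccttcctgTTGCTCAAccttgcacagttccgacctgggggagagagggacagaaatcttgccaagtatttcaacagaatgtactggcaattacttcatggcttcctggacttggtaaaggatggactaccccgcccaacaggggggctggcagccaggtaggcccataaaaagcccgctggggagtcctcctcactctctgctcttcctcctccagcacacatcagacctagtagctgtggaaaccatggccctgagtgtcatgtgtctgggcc
Gfap: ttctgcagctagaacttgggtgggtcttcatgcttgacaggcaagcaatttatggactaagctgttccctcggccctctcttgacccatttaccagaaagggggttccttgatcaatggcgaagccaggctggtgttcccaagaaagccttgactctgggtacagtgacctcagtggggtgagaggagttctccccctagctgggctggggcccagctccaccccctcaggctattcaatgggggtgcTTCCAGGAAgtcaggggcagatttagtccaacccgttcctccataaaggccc
Serpina3n: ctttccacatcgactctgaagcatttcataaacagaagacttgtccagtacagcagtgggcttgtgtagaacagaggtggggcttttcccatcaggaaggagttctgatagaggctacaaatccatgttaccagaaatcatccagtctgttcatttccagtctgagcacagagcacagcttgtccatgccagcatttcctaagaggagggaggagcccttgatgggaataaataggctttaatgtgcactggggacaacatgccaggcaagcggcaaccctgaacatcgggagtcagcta
Osmr: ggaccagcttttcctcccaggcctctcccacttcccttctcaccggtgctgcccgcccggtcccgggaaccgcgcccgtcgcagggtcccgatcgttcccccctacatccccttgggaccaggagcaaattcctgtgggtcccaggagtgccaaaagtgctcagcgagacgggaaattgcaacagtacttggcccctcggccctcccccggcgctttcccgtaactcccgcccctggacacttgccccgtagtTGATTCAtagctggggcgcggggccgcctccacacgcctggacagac
In capitals are a C/EBP match in the Lcn2 window, a STAT match over the start site in the Gfap window and an AP-1 match next to the start site of Osmr, while the Serpina3n window held no match. The STAT motif TTCNNNGAA was in 2 of the 9 windows (Gfap and Steap4) and in 8.3% of all 32851 windows of this length. The C/EBP motif TTGCNNAA was in 2 (Lcn2 and Steap4, 10.8% of all windows), the AP-1 motif TGANTCA in 1 (Osmr, 7.81%), the NF-kB motif in 2 (Vim and Steap4, 5.8%) and the TATA motif TATAAA in 2 (Vim and Steap4, 13.6%). Both strands were searched, and no match overlapped a match to another motif. A match describes the letters only and is not evidence of a bound site.

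The values are log2 intensities from RMA (robust multichip average), normalized so that all arrays share nearly the same distribution. Arrays are named by their group and replicate number. Correlations between arrays ran from 0.978 to 0.991. Vehicle 2, CM-695 3 and SAHA and tadalafil 1 stood apart on the first principal component, which held 22.7% of the variance, with scores of 40.3, 35.6 and 24.1 where the next highest array had 5.47. Summed intensities of 14 markers of thalamus and habenula, which adjoin the hippocampus, were 5610 on vehicle 1 and 5817 on SAHA and tadalafil 2 and between 2663 and 3839 on the other 10 arrays. Those of 10 choroid plexus and ependymal markers ran from 3589 to 16154, with overlapping ranges in all groups, and those of 10 hippocampus markers from 5111 to 6047. The part of neighbouring tissue in the results below was not tested.

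Lcn2, which encodes lipocalin 2, a secreted protein that binds iron-carrying siderophores and is an acute phase marker of reactive astrocytes, was the gene of the 10 with the widest spread between groups. Its log2 values were 7.09, 6.61 and 6.83 on the vehicle arrays. They were 6.53, 6.22 and 6.10 with CM-695, 7.36, 7.11 and 7.55 with CM-414, and 7.79, 6.95 and 6.49 with SAHA and tadalafil. All 3 CM-695 arrays thus lay below all vehicle arrays. All 3 CM-414 arrays lay above the vehicle arrays, but by a narrow margin (7.11 against 7.09). The SAHA and tadalafil arrays spread more widely than the vehicle and CM-414 arrays together. CM-695 and CM-414 differed by a log2 value of -1.06 (SE 0.27, 95% confidence interval -1.66 to -0.46), so that Lcn2 was 2.08-fold lower with CM-695 (limma, adjusted p = 0.710 after Benjamini-Hochberg adjustment over all probe sets tested). This difference passed an unadjusted p of 0.01, the threshold of the study's methods, and a gene past it is called here. Against vehicle, the log2 difference was -0.56 for CM-695 (SE 0.16, 95% interval -0.95 to -0.18, adjusted p = 0.871) and 0.49 for CM-414 (SE 0.27, 95% interval -0.11 to 1.10, adjusted p = 0.609), and neither passed that threshold. In limma's moderated F-test over all 4 groups its adjusted p was 0.622.

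The difference in Lcn2 between CM-695 and CM-414 passed the unadjusted threshold in 13 of 15 other settings, and its log2 value ran from -1.18 to -0.95. It missed the threshold without CM-695 replicate 3 (-0.97) and without CM-414 replicate 3 (-0.95), and passed it without the 3 arrays set apart by the first component (-0.97). The difference from vehicle with CM-695 passed in 5 of 16 other settings. Neutrophils also make lipocalin 2, and the summed intensities of 8 neutrophil markers ran from 316 to 369 over all arrays. On the log2 scale S100a8 lay between 3.99 and 4.72 and S100a9 between 5.50 and 6.02. Of 7 of these markers tested in CM-695 against CM-414, 1 was called, where 1.11% of all probe sets were. It was Camp, higher with CM-695 (0.38, limma, adjusted p = 0.733). Camp read 4.43 to 4.69 with CM-695 and 4.01 to 4.28 with CM-414. Like S100a8, it lay close to the filter on low values, a log2 value of 4, so little can be read from it. The part of neutrophils in the Lcn2 values was not tested. In whole tissue, fewer cells of a type and less RNA per cell cannot be told apart, here and in every result below.

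**Figure D1:**
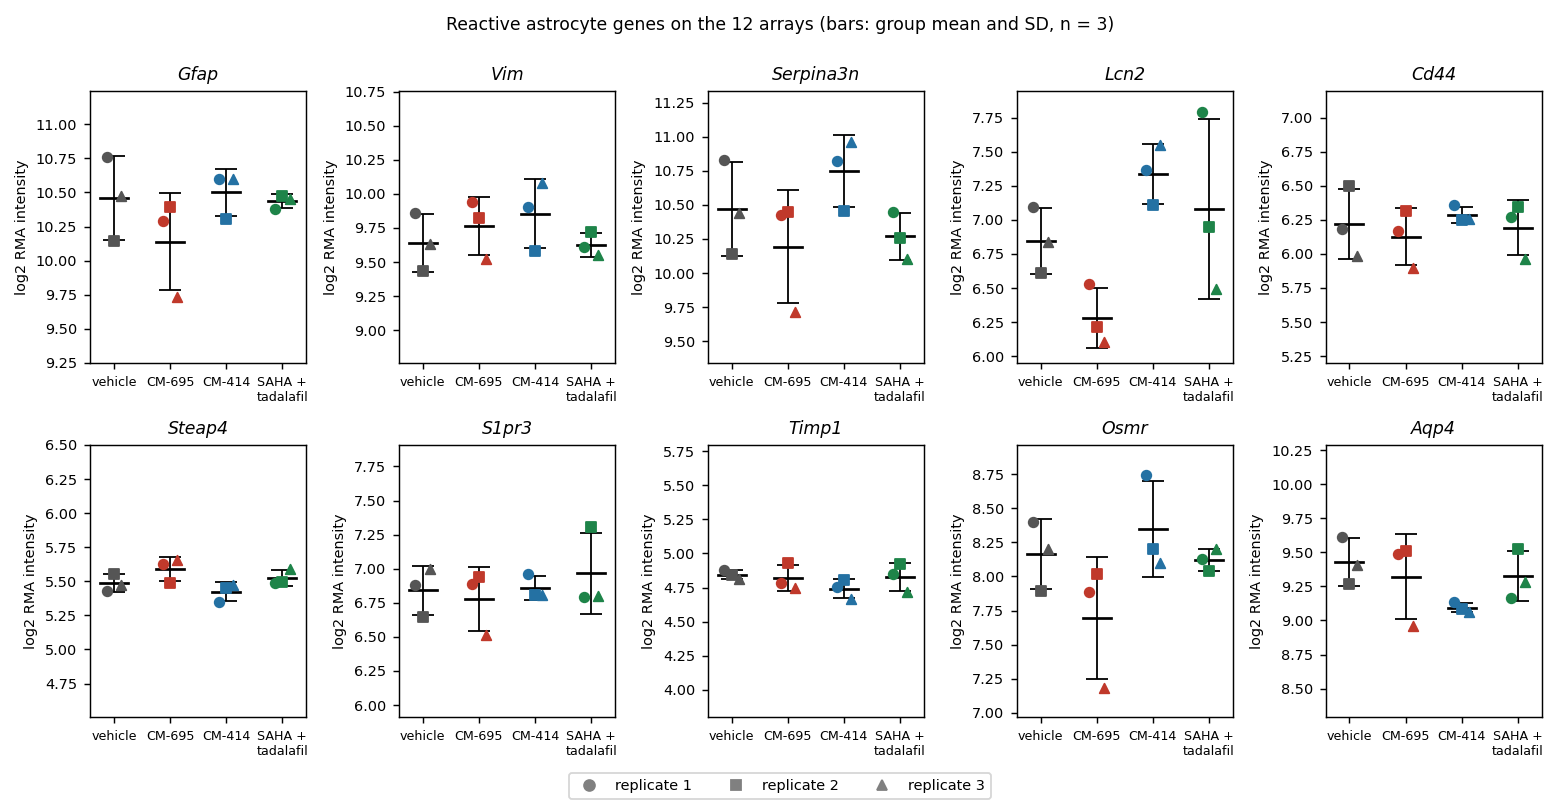
Log2 RMA intensity (vertical axis, a span of 2 log2 units in every panel) of the 10 genes on each of the 12 arrays by group (horizontal axis), with points for arrays, marker shapes for replicate numbers, and bars for the group mean and SD (n = 3). For Lcn2 the CM-695 arrays sit between 6.10 and 6.53, below the vehicle arrays, and the CM-414 arrays between 7.11 and 7.55, above them by a narrow margin.

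Serpina3n encodes a secreted serine protease inhibitor of the antichymotrypsin family that is strongly induced in reactive astrocytes. It read 10.83, 10.14 and 10.44 on the vehicle arrays and 10.42, 10.45 and 9.71 with CM-695. It read 10.82, 10.46 and 10.96 with CM-414 and 10.45, 10.25 and 10.11 with SAHA and tadalafil. The CM-414 arrays lay above those of CM-695 and of SAHA and tadalafil without overlap but by a narrow margin, and each treatment overlapped vehicle. CM-695 minus CM-414 was -0.55 (SE 0.23, 95% interval -1.05 to -0.06, adjusted p = 0.856), and without CM-695 replicate 3, the lowest array, it was -0.31. CM-414 minus SAHA and tadalafil was 0.48 (SE 0.23, 95% interval -0.02 to 0.98, adjusted p = 0.766). Against vehicle the log2 differences were -0.27 for CM-695, 0.28 for CM-414 and -0.20 for SAHA and tadalafil, all with intervals that included 0.

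Timp1, an inhibitor of the matrix metalloproteinases and the third secreted protein, lay close to the filter on low values, a log2 value of 4. It read 4.88, 4.84 and 4.82 with vehicle, 4.78, 4.93 and 4.75 with CM-695, 4.75, 4.80 and 4.66 with CM-414, and 4.85, 4.92 and 4.72 with SAHA and tadalafil. The CM-414 arrays lay below the vehicle arrays without overlap but by a narrow margin, with a log2 difference of -0.11 (SE 0.08, 95% interval -0.29 to 0.08, adjusted p = 0.729). No array reached a log2 value of 5.

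Gfap, the filament protein that defines reactive astrocytes in tissue sections, was highest on vehicle 1 and lowest on CM-695 3. The vehicle arrays read 10.76, 10.15 and 10.47 and the CM-695 arrays 10.29, 10.39 and 9.73. CM-414 gave 10.60, 10.30 and 10.60, and SAHA and tadalafil gave 10.38, 10.48 and 10.45, the narrowest spread of the 4 groups (SD 0.05, against 0.31 for vehicle). The groups overlapped in every comparison with vehicle. The log2 difference from vehicle was -0.32 for CM-695 (SE 0.22, 95% interval -0.83 to 0.19, adjusted p = 0.992), 0.04 for CM-414 and -0.02 for SAHA and tadalafil. The interval for CM-414 was -0.36 to 0.45 and that for SAHA and tadalafil -0.43 to 0.38. With 3 arrays a group, differences within these bounds remain compatible with the values.

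Vim, vimentin, is the filament protein that astrocytes build together with GFAP, and it is also made by vessel wall cells and ependyma. Its brighter probe set read 9.86, 9.43 and 9.63 with vehicle and 9.94, 9.82 and 9.53 with CM-695. It read 9.91, 9.58 and 10.08 with CM-414 and 9.61, 9.72 and 9.55 with SAHA and tadalafil. All groups overlapped, and the differences from vehicle were 0.12, 0.21 and -0.01 with CM-695, with CM-414 and with SAHA and tadalafil, with intervals that included 0. A second, dimmer probe set of Vim exists. With the mean of both, the value was -0.04 for CM-695, 0.07 for CM-414 and 0.05 for SAHA and tadalafil.

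Osmr, the receptor subunit for oncostatin M, which signals through STAT3, had the second widest spread. It read 8.40, 7.89 and 8.20 with vehicle and 7.89, 8.02 and 7.18 with CM-695. It read 8.75, 8.20 and 8.10 with CM-414 and 8.13, 8.04 and 8.20 with SAHA and tadalafil. The 3 CM-695 arrays lay below all arrays of CM-414 and of SAHA and tadalafil, the latter by a narrow margin (8.02 against 8.04), and overlapped vehicle. CM-695 minus CM-414 was -0.65 (SE 0.23, 95% interval -1.15 to -0.15, adjusted p = 0.853), and without CM-695 replicate 3, the lowest array, it was -0.40. Against vehicle the value for CM-695 was -0.47 (SE 0.24, 95% interval -1.03 to 0.09, adjusted p = 0.992), and that without CM-695 replicate 3 was -0.21.

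The other surface receptors, S1pr3 and Cd44, overlapped between all groups compared with vehicle. S1pr3, a receptor for sphingosine 1-phosphate, read 6.88, 6.65 and 6.99 with vehicle and 6.89, 6.94 and 6.51 with CM-695. It read 6.96, 6.81 and 6.81 with CM-414 and 6.79, 7.31 and 6.80 with SAHA and tadalafil, where replicate 2, one of the arrays with high thalamus markers, was the highest of all 12. Cd44, the hyaluronan receptor, read 6.18, 6.50 and 5.99 with vehicle and 6.17, 6.31 and 5.90 with CM-695. It read 6.36, 6.25 and 6.26 with CM-414 and 6.27, 6.34 and 5.96 with SAHA and tadalafil. Their differences from vehicle ran from -0.10 (Cd44 with CM-695) to 0.13 (S1pr3 with SAHA and tadalafil).

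Aqp4, the water channel of the astrocyte endfeet on vessels, had its lowest group mean with CM-414, as had Timp1 and Steap4. It read 9.62, 9.27 and 9.41 with vehicle and 9.13, 9.09 and 9.06 with CM-414. It read 9.49, 9.51 and 8.96 with CM-695 and 9.16, 9.52 and 9.28 with SAHA and tadalafil. The CM-414 arrays lay close together (SD 0.04) and below every array of vehicle and of SAHA and tadalafil. The difference was -0.33 (SE 0.15, 95% interval -0.67 to 0.00, adjusted p = 0.539). Without the 3 arrays set apart by the first component it was -0.42 and passed the unadjusted threshold, and without vehicle replicate 1 it was -0.24 and did not. Of 12 measured partners of the endfoot complex, 0 were called with CM-695, with CM-414 or with SAHA and tadalafil against vehicle. Of all probe sets, 1.12%, 2.45% and 1.12% were called in these comparisons, so nothing is read from the 0. Negative values were found for 9 of 12 with CM-414 (median -0.08, against 0.00 over all probe sets tested). They were found for 8 of 12 with CM-695 (median -0.04, against 0.01) and for 6 of 12 with SAHA and tadalafil (median 0.02, against -0.01).

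Steap4, a membrane metalloreductase that mouse astrocytes induce after injury, was the gene that correlated negatively with each of the other 9 across the arrays. It read 5.43, 5.56 and 5.47 with vehicle and 5.63, 5.49 and 5.66 with CM-695. It read 5.35, 5.45 and 5.47 with CM-414 and 5.49, 5.49 and 5.59 with SAHA and tadalafil. The CM-414 arrays lay below those of CM-695 and of SAHA and tadalafil without overlap but by a narrow margin. The CM-695 minus CM-414 log2 difference was 0.17 (SE 0.08, 95% interval -0.01 to 0.34, adjusted p = 0.869). The whole range over 12 arrays was 0.31.

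All 10 genes passed the filter on low values, a log2 value over 4 on all arrays of the groups compared, in every comparison. With CM-695, 0 of 10 were called at an unadjusted limma p under 0.01, where 1.12% of 35195 probe sets were. With 1 of 10 (Lcn2) the arrays did not overlap with vehicle, which held for 10.4% of all probe sets, and 8 of the 10 had negative values, with a median of -0.10 against 0.01 over all probe sets. With CM-414, 0 of 10 were called (2.45% of all probe sets), 3 did not overlap with vehicle (Lcn2 higher, Timp1 and Aqp4 lower, against 17.2% of all probe sets), and 7 had positive values, with a median of 0.05 against 0.00 over all probe sets. With SAHA and tadalafil, 0 of 10 were called (1.12% of all probe sets) and 0 did not overlap (9.29%), and the median was -0.02 against -0.01 over all probe sets. The 3 comparisons share the vehicle arrays. At an unadjusted p under 0.05 there were 1, 0 and 0 of the 10 in the same order, but CM-695 was fitted on its 6 arrays and the others on all 12. Fitted alike, Lcn2 passed 0.05 with both CM-695 and CM-414 on 6 arrays each and with neither on all 12. No probe set of these genes had an adjusted p under 0.05 in any comparison.

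**Figure D2:**
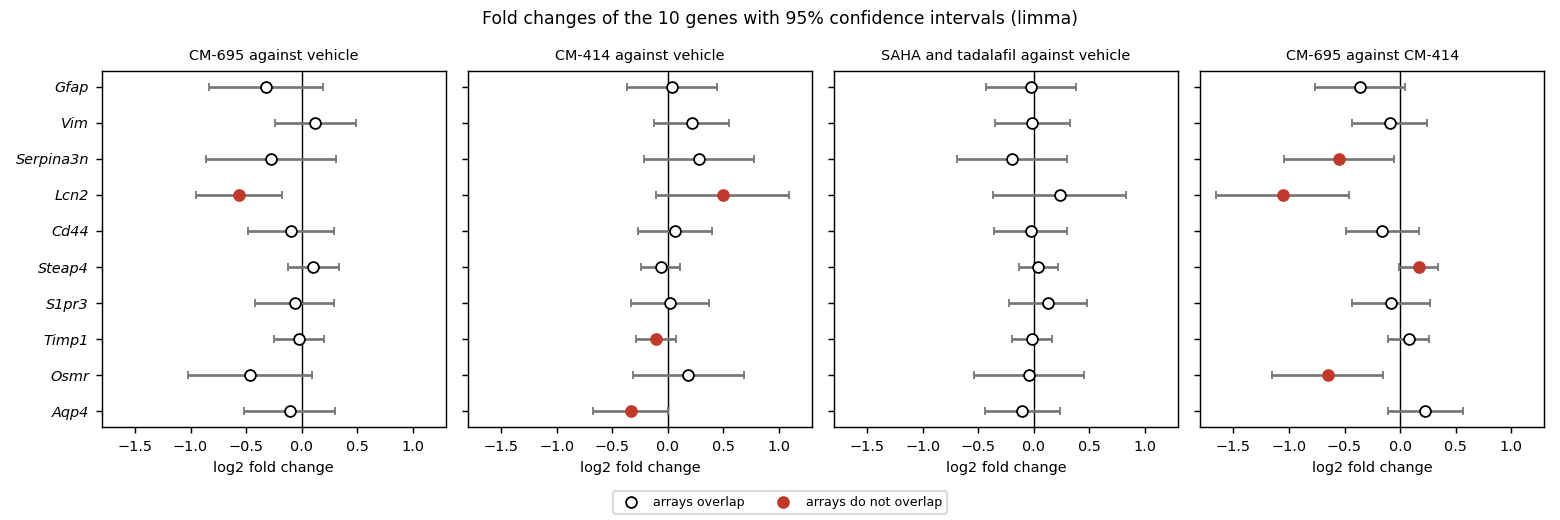
Log2 fold changes (horizontal axis) of the 10 genes (vertical axis) in 4 comparisons, with limma's 95% confidence intervals as bars and filled points where the 3 arrays of one group do not overlap those of the other. Lcn2 lies at -0.56 for CM-695 and 0.49 for CM-414 against vehicle, and at -1.06 between them, where 4 genes have filled points.

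Between treatments, CM-695 against CM-414 called 1 of the 10 genes, Lcn2 (1.11% of all probe sets). The arrays did not overlap for 4 of the 10, where 13.4% of all probe sets did not. For Lcn2, Osmr and Serpina3n the CM-695 arrays lay below and for Steap4 above those of CM-414. CM-695 against SAHA and tadalafil called 0 of 10 (1.74% of all probe sets), with Lcn2 at -0.79 (95% interval -1.40 to -0.19, adjusted p = 0.582) although its arrays overlapped through the value of 6.49. There the arrays did not overlap for 1 of the 10, Osmr. CM-414 against SAHA and tadalafil called 0 of 10 (1.18% of all probe sets), and 3 of the 10 did not overlap, Serpina3n, Aqp4 and Steap4. In these comparisons of a treatment with SAHA and tadalafil, the share of all probe sets without overlap was not computed, so nothing is read from the counts. Over all 4 groups the F-test called 0 of 10 (1.62% of all probe sets). The smallest p of an exact permutation test of 3 against 3 arrays is 0.1, so no such test could pass the threshold.

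CM-414 gave the highest group mean for Gfap, Vim, Serpina3n, Lcn2, Cd44 and Osmr, and CM-695 the lowest for Gfap, Serpina3n, Lcn2, Cd44, S1pr3 and Osmr. Of these orders, the only step past an unadjusted p of 0.01 in any pair of groups was that of Lcn2 between CM-414 and CM-695. CM-695 3 was the lowest of all 12 arrays for 7 genes, Gfap, Serpina3n, Lcn2, Cd44, S1pr3, Osmr and Aqp4, and the highest for Steap4. It is one of the 3 arrays that stand apart. Without CM-695 replicate 3 the differences from vehicle in this group moved from -0.32 to -0.12 for Gfap, from -0.27 to -0.03 for Serpina3n and from -0.56 to -0.47 for Lcn2.

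Across the 12 arrays the genes formed no single block. Of the 45 pairs, 32 had a positive Pearson r, with a median of 0.28, and without the 3 arrays that stand apart 23 did. Gfap went with Osmr (r = 0.87, 0.61 on 9 arrays) and with Serpina3n (0.85, 0.65 on 9 arrays), and Vim with Serpina3n (0.78, 0.76 on 9 arrays). Steap4 went against Osmr (-0.85, -0.79 on 9 arrays), and Timp1 went with Aqp4 (0.68, 0.76 on 9 arrays). These values describe arrays that share treatment and normalization, and the pairs share genes.

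**Figure D3:**
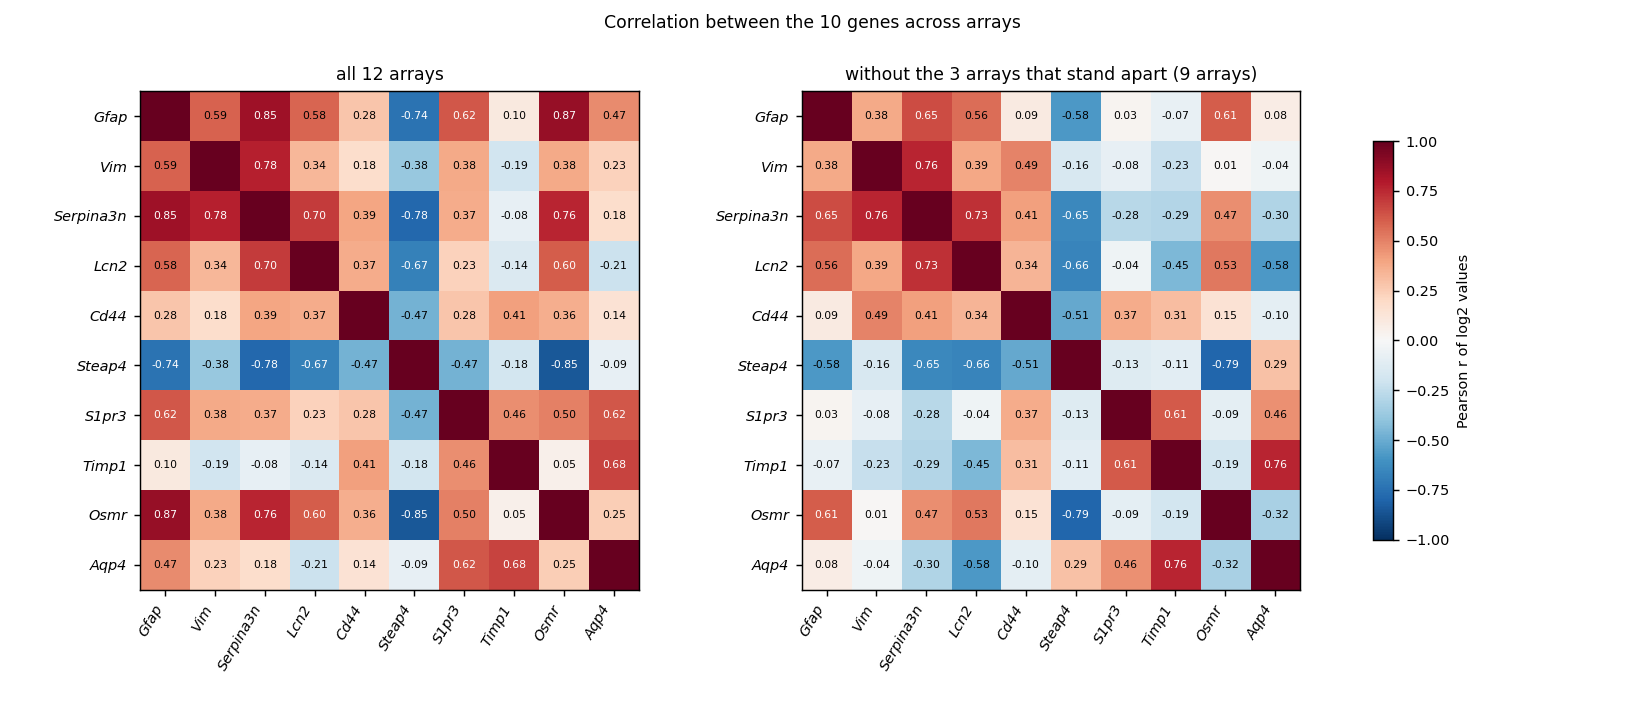
Pearson r of the log2 values of each pair of the 10 genes (rows and columns), over all 12 arrays on the left and over the 9 arrays left without the 3 that stand apart on the right. The block of Gfap, Serpina3n, Lcn2 and Osmr is positive in both panels, and Steap4 is negative with each of them.

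The genes whose pattern over the 12 arrays was most like that of Gfap, among 19948, included 3 of microglia and related immune cells. Cd68, a lysosomal protein of phagocytes, had r = 0.94 (0.84 on 9 arrays), Lilrb4a, an inhibitory receptor of myeloid cells, 0.93 (0.75 on 9 arrays), and Fcer1g, an adaptor of immunoglobulin receptors, 0.91 (0.60 on 9 arrays). Rps6kb2, a ribosomal protein kinase (0.92, 0.69 on 9 arrays), and Cep290, a protein of the cilium base (0.91, 0.60 on 9 arrays), completed the 5. Lilrb4a ran from 5.49 on CM-695 3 to 8.59 on CM-414 1, with 8.02, 6.42 and 7.85 on the vehicle arrays. For Serpina3n the 5 were Tor1b, a torsin of the endoplasmic reticulum (0.94), Galnt7, a glycosyltransferase (0.91), Cyp2d22, a cytochrome of drug metabolism (0.90), Ube2j1, a ubiquitin-conjugating enzyme (0.90), and Gabra4, a GABA receptor subunit (0.89), none of them a marker on the lists used here. Their r on 9 arrays ran from 0.82 to 0.90.

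**Figure D4:**
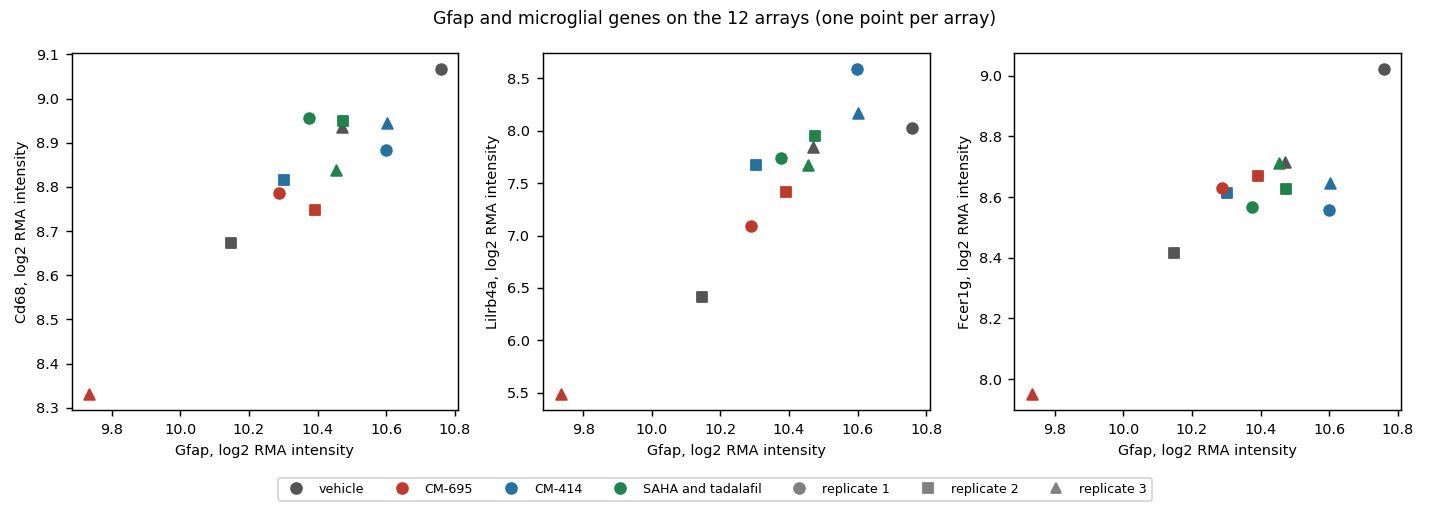
Log2 intensity of Cd68, Lilrb4a and Fcer1g (vertical axes) against that of Gfap (horizontal axis), 1 point per array, coloured by group and shaped by replicate number. The lowest point in each panel is CM-695 3, with Gfap at 9.73 and Lilrb4a at 5.49.

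Other genes of astrocytes were read from lists. Of 37 other genes of reactive astrocytes 33 were measured. Their medians were 0.02, -0.03 and -0.01 against vehicle in the order CM-695, CM-414 and then SAHA with tadalafil. In that order 0, 3 and 0 were called, where 1.12%, 2.45% and 1.12% of all probe sets were. With CM-414, Fbln5, which encodes the elastic fibre protein fibulin 5, rose by a log2 value of 0.64 (SE 0.12, limma, adjusted p = 0.245). Its CM-414 arrays read 7.86 to 8.08 and its vehicle arrays 7.15 to 7.44, and it passed in all 16 other settings. Gbp3, an interferon-induced guanylate-binding protein, fell by 0.49 (adjusted p = 0.373) and Tnc, the matrix protein tenascin C, fell by 0.51 (adjusted p = 0.404). They passed in 13 of 15 and 8 of 16 other settings. The call of Gbp3 ended without CM-414 replicate 1 or vehicle replicate 1, and that of Tnc without any 1 of the 6 arrays, while the log2 values stayed between -0.56 and -0.40 for Gbp3 and between -0.56 and -0.44 for Tnc in all these settings. Against SAHA and tadalafil, Fbln5 was again higher with CM-414 (0.57, adjusted p = 0.766), and against CM-414 it was lower with CM-695 (-0.59, adjusted p = 0.620). On the same list, Nes was called the other way, higher with CM-695 than with CM-414 (0.43, limma, adjusted p = 0.702). Nes was also higher with CM-695 than with SAHA and tadalafil (0.33, adjusted p = 0.567). Gbp3 was lower with CM-414 than with SAHA and tadalafil (-0.43, adjusted p = 0.766).

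Of 26 measured genes of resting astrocytes, 3 were called with CM-414, where 2.45% of all probe sets were. With CM-695 and with SAHA and tadalafil 0 were called (1.12% of all probe sets in each). The medians were 0.00 with CM-695, 0.01 with CM-414 and -0.02 with SAHA and tadalafil. Gjb6, a gap junction connexin of astrocytes, rose by 0.47 with CM-414 (limma, adjusted p = 0.385). Sox9, a transcription factor of astrocytes, fell by 0.36 (adjusted p = 0.399) and Mt3, a brain metallothionein, fell by 0.32 (adjusted p = 0.404). Gjb6 passed in 11 of 16 other settings, and its call ended without CM-414 replicate 1 or 3 or vehicle replicate 2, without the 3 arrays that stand apart (0.35) and without the 2 with high thalamus markers (0.47). Sox9 and Mt3 passed in 8 of 16, and the call of Sox9 ended without any 1 of the 6 arrays and that of Mt3 without any of them but CM-414 replicate 3. Over all settings the log2 values ran from 0.35 to 0.59 for Gjb6, from -0.37 to -0.34 for Sox9 and from -0.36 to -0.26 for Mt3. Between treatments, Mt2 was called lower with CM-695 than with CM-414 (-0.49, limma, adjusted p = 0.653). Mt2 was also lower with CM-695 than with SAHA and tadalafil (-0.43, adjusted p = 0.531). Gjb6 was lower with CM-695 than with CM-414 (-0.46, adjusted p = 0.757). The summed intensities of the resting genes were 33906 to 36649 with vehicle, 32991 to 36343 with CM-695, 35111 to 38838 with CM-414 and 34488 to 37300 with SAHA and tadalafil. Along the 12 arrays this sum had r = 0.83 with Serpina3n, 0.83 with Vim and 0.79 with Gfap, and 0.66, 0.78 and 0.46 on the 9 arrays.

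Of 18 genes of OSMR and STAT3 signalling tested, 1 was called, Bcl3, an NF-kB cofactor. Bcl3 fell by 0.51 with CM-414 (limma, adjusted p = 0.399), where 2.45% of all probe sets were called. Its call ended without CM-414 replicate 2, vehicle replicate 1 or vehicle replicate 3, and its log2 value ran from -0.61 to -0.38 over all settings. Of 13 intermediate filament genes and their partners, 0 were called against vehicle with any treatment. Of all probe sets, 1.12% were called with CM-695, 2.45% with CM-414 and 1.12% with SAHA and tadalafil, so nothing is read from the 0. Between treatments, Nes was called higher with CM-695 than with CM-414 (1.11% of all probe sets called). Nes and Krt8 were called higher with CM-695 than with SAHA and tadalafil (1.74% of all probe sets called). Krt8 stood at 0.37 there (limma, adjusted p = 0.548).

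The microglia markers of the same arrays were read beside these values. With CM-695, 16 of 17 microglia markers had negative values against vehicle (median -0.22 against 0.01 over all probe sets). Of the 17, 2 were called, where 1.12% of all probe sets were. They were C1qb, a chain of complement C1q (fell by 0.74), and Fcrls, an Fc receptor-like protein of microglia (fell by 0.78). Both had an adjusted p of 0.871 (limma). The call of C1qb ended without CM-695 replicate 1 or 2 or vehicle replicate 2, and that of Fcrls without CM-695 replicate 1 or 2 or vehicle replicate 1 or 2, with values of -0.81 to -0.68 for C1qb and -0.88 to -0.55 for Fcrls in these fits. Both calls also ended without the 3 arrays that stand apart, with values of -0.89 for C1qb and -0.79 for Fcrls. With CM-414, 16 of 17 were also negative (median -0.24) and 1 was called, where 2.45% of all probe sets were. It was Fcrls, which fell by 1.01 (limma, adjusted p = 0.294). With SAHA and tadalafil 14 of 17 were negative (median -0.14). Summed microglia intensities were 4876 to 6334 with vehicle, 3895 to 5073 with CM-695, 4564 to 5025 with CM-414 and 4664 to 5256 with SAHA and tadalafil. The sum had r = 0.77 with Gfap and 0.18 with Lcn2 over the 12 arrays, and 0.50 and -0.08 on the 9 arrays. The part of microglia in the values of the 10 genes was not tested. Of 14 thalamus and habenula markers, 12 had negative values with CM-695 (median -0.25) and 11 with CM-414 (median -0.28). Without the arrays with high thalamus markers, Lcn2 was at -0.44 for CM-695 and 0.62 for CM-414 against vehicle, and Gfap for SAHA and tadalafil moved from -0.02 to 0.11. The calls of Tnc (-0.51), Sox9 (-0.36), Mt3 (-0.34) and Bcl3 (-0.46) with CM-414 and of Fcrls with CM-695 (-0.79) also ended without these arrays.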

How the data were processed

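Hippocampal RNA was hybridised to Affymetrix Mouse Gene 2.0 ST arrays. The authors corrected the background and normalized with RMA (version not given in the sources used here), and the deposited values are log2 intensities of 41345 probe sets, of which 23521 are annotated to 1 gene symbol, 1820 to several and 16004 are not listed. Groups came from the array labels, and 0 columns were of another series. Moderated two-sided tests came from limma 3.58.1 (lmFit and eBayes under R 4.3.3). CM-695 against vehicle used its 6 arrays, as in the study's methods, and all other comparisons and the F-test used all 12. Probe sets over a log2 value of 4 (linear 16) on every array of the groups compared were kept. This is the criterion of the study's methods, but the number of probe sets those methods state was not obtained with it from the deposited values, so the shares called and the adjusted p-values rest on another set of probe sets than the study's. Calls were made at an unadjusted p under 0.01, with Benjamini-Hochberg adjustment over all probe sets tested given beside it. The fits were tested on simulated data. Arrays have no read depth, and their number limits the precision.

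The 10 genes and the 14 other lists were chosen with earlier results of these data known. Named beside the 10 genes are, from each other list, up to 4 genes called against vehicle, and for Gfap and Serpina3n the 5 genes with the highest Pearson r over the 12 arrays. From the astrocyte, intermediate filament and neutrophil lists, genes called between treatments are named too, and those of the remaining lists are not given. The lists with called genes not described elsewhere were oligodendrocyte (Olig2 rose by 0.59 with CM-695, and Olig1, Ugt8a and Opalin fell by 0.58, 0.72 and 0.82 with CM-414), neuron (Tubb3 fell by 0.45 with CM-414), hippocampus (Lct fell by 0.66 with CM-414), endothelial (Slco1a4 rose by 0.47 with CM-414 and 0.43 with SAHA and tadalafil) and mural (Acta2 rose by 0.63 with SAHA and tadalafil). Adjusted p-values of these genes (limma) ran from 0.205 for Olig1 to 0.885 for Acta2. Among them, the calls of Slco1a4 and Acta2 with SAHA and tadalafil ended without the 3 arrays that stand apart, and these calls and those of Opalin and Lct without the 2 with high thalamus markers. The call of Olig2 ended without any 1 of the CM-695 replicates, with values of 0.56 to 0.63. Called were 1 of 12 oligodendrocyte markers with CM-695 and 3 of 12 with CM-414. The choroid plexus, thalamus and neutrophil lists had 0 called against vehicle. Of all probe sets, 1.12% were called with CM-695, 2.45% with CM-414 and 1.12% with SAHA and tadalafil. Arrays with the same replicate number were not paired: the correlation of their deviations ran from -0.35 to 0.16 over 18 pairs, and 4 were over 0.1. Alternatives were other filters, the replicate number as a block, median centring, an intensity trend, the mean over probe sets, array weights, fitting 6 or all 12 arrays and leaving out each array. Leaving out the 3 arrays that stand apart, and the 2 with high thalamus markers, was chosen after seeing the data. Promoter windows came from RefSeq (GRCm38.p6), and plots were made with Python 3.11.15 and matplotlib 3.10.9.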

Additional observations from a re-analysis of the deposited data

How the results depend on the processing

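Of the 10 genes, the number called at an unadjusted limma p under 0.01 moved by at most 2 between settings. For CM-695 against vehicle it was 0, and 1 (Lcn2) with a log2 minimum of 5, with array weights and with the replicate number as a block. For CM-414 against vehicle it was 0, and 1 (Aqp4) with array weights and without the 3 arrays that stand apart. For CM-695 against CM-414 it was 1 (Lcn2), and 2 (Lcn2 and Aqp4) without those 3 arrays. For CM-695 against SAHA and tadalafil it was 0 and 1 with the block, and for CM-414 against SAHA and tadalafil 0 and 1 without those 3 arrays. For the test over 4 groups it was 0, 1 with array weights, 1 with the block and 2 without those arrays. For SAHA and tadalafil against vehicle it was 0 in all 16 other settings too. Leaving out 1 replicate gave 0 to 1 for CM-695 against vehicle (1 when CM-695 replicate 1 or vehicle replicate 2 was left out), 0 (CM-414 replicate 3 left out) to 2 (CM-695 replicate 2 left out, with Osmr) for CM-695 against CM-414, 0 to 1 for CM-695 against SAHA and tadalafil, and 0 to 1 for the 4 groups. Without CM-695 replicate 3, Lcn2 was no longer called in that pair and Aqp4 was (0.41). The replicate block rests on shared numbers alone, since the numbers do not pair the arrays. The cause of these moves was not tested.

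Over the comparisons with vehicle and CM-695 against CM-414, log2 differences of the 10 genes turned sign in 44 alternative values. None of these was the called Lcn2 difference between CM-695 and CM-414. Another 570 kept their sign and their side of an unadjusted p of 0.01, 10 came to pass it and 2 no longer passed it. With the mean over probe sets, Vim was -0.036 for CM-695 and 0.049 for SAHA and tadalafil against vehicle. With array weights, Cd44 was 0.026 for CM-695, Gfap -0.089 and S1pr3 -0.019 for CM-414, and Lcn2 -0.080 for SAHA and tadalafil. Without the 3 arrays that stand apart, Cd44 was 0.15 and Timp1 0.0097 for CM-695, Gfap -0.11 and S1pr3 -0.079 for CM-414, Lcn2 -0.25 and Cd44 0.069 for SAHA and tadalafil, and Vim 0.026 and S1pr3 0.055 between CM-695 and CM-414. Without the 2 arrays with high thalamus markers, SAHA and tadalafil gave 0.11 for Gfap, 0.047 for Vim, -0.026 for S1pr3 and 0.12 for Osmr. Leaving out 1 replicate gave ranges on both sides of 0 for Cd44 (-0.21 to 0.041), Timp1 (-0.082 to 0.010), S1pr3 (-0.16 to 0.072) and Aqp4 (-0.20 to 0.071) with CM-695, and for Gfap (-0.11 to 0.19), S1pr3 (-0.079 to 0.095), Osmr (-0.015 to 0.31) and Cd44 (-0.053 to 0.20) with CM-414. With SAHA and tadalafil these were Vim (-0.12 to 0.095), Lcn2 (-0.13 to 0.52), Cd44 (-0.15 to 0.11), Gfap (-0.18 to 0.13), S1pr3 (-0.046 to 0.21), Osmr (-0.18 to 0.075) and Timp1 (-0.062 to 0.038), and between CM-695 and CM-414 Vim (-0.23 to 0.026) and S1pr3 (-0.16 to 0.055).

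The number of all probe sets called moved further. For CM-695 against vehicle it was 393, 1097 with array weights, 1125 without the 3 arrays that stand apart, 255 without the 2 with high thalamus markers or vehicle replicate 1 alone, 247 without CM-695 replicate 1 and 913 without vehicle replicate 2. For CM-414 against vehicle it was 864, 1531 with array weights, 1319 without the 3 arrays and 448 without CM-414 replicate 1. Array weights gave 664 for SAHA and tadalafil against vehicle (395 without weights) and 700 for CM-695 against CM-414 (393). For CM-695 against SAHA and tadalafil it was 612, 1050 with array weights, 1225 without the 3 arrays, 320 without the 2 and 366 without SAHA and tadalafil replicate 2. For CM-414 against SAHA and tadalafil it was 418, 906 with array weights, 931 without the 3 arrays and 275 without CM-414 replicate 1. For the 4 groups it was 563, 1233 with array weights, 1193 without the 3 arrays and 373 without the 2. Timp1 has no value with a log2 minimum of 5, and the intervals of the 10 genes are limited by 3 arrays a group.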
